A study of Mus musculus with 8 samples.

Results

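The genes described here are 46 genes of DNA replication and mitosis, chosen by name from the 25929 genes for which an FPKM value (fragments scaled to transcript length and library size) was given in each of 8 heart libraries. All 46 were found. Their Ensembl identifiers were matched to mouse symbols. The rule uses no measured value, but the genes were chosen with earlier results of these data known. The study asked how n-3 polyunsaturated fatty acids made by the animal itself change the heart under pressure overload. It compared wild-type mice (WT, C57BL/6) with transgenic fat-1 littermates, which carry a C. elegans n-3 fatty acid desaturase. The promoter of the transgene is not given in the sources used here. Mice of both genotypes were 3 months old at surgery. TAC (transverse aortic constriction) was set against a sham operation, in which the chest was opened and the aorta was left unconstricted. The wild-type groups were WT-Sham and WT-TAC and the transgenic groups Fat1-Sham and Fat1-TAC. Each had 2 libraries, stated to be independent samples, and a library is named by its group and number, as in WT-TAC1. The labels name ventricular tissue and the methods name whole hearts. P-values measure the spread between these libraries.

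A dividing cell first licenses its replication origins by loading a ring-shaped helicase, then fires them and copies its DNA while nucleotides are made on demand. It then condenses its chromosomes, attaches them to a spindle, separates them and divides. Transcription of the first group of genes is driven largely by E2F factors, and that of the mitotic group by factors that bind CCAAT boxes and the cell cycle homology region (CHR). Adult cardiomyocytes have largely left the cell cycle.

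The level of the 46 genes was set apart by 1 library, WT-TAC1. Summed over the 46 genes, FPKM was 1805 in WT-TAC1, 145.9 in WT-TAC2, 126.9 and 134.4 in the WT-Sham libraries, 123.7 and 107.4 in Fat1-Sham, and 129 and 146.4 in Fat1-TAC. WT-TAC2 therefore lay with the remaining libraries, just below Fat1-TAC2. Every one of the 46 genes had its highest level in WT-TAC1, where 51.7% of all listed genes had theirs. All 46 were also more than 2-fold above each of the other 7 libraries, against 20.4% of all listed genes. In bulk tissue, more cells of a type and more RNA per cell cannot be told apart.

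**Figure D1:**
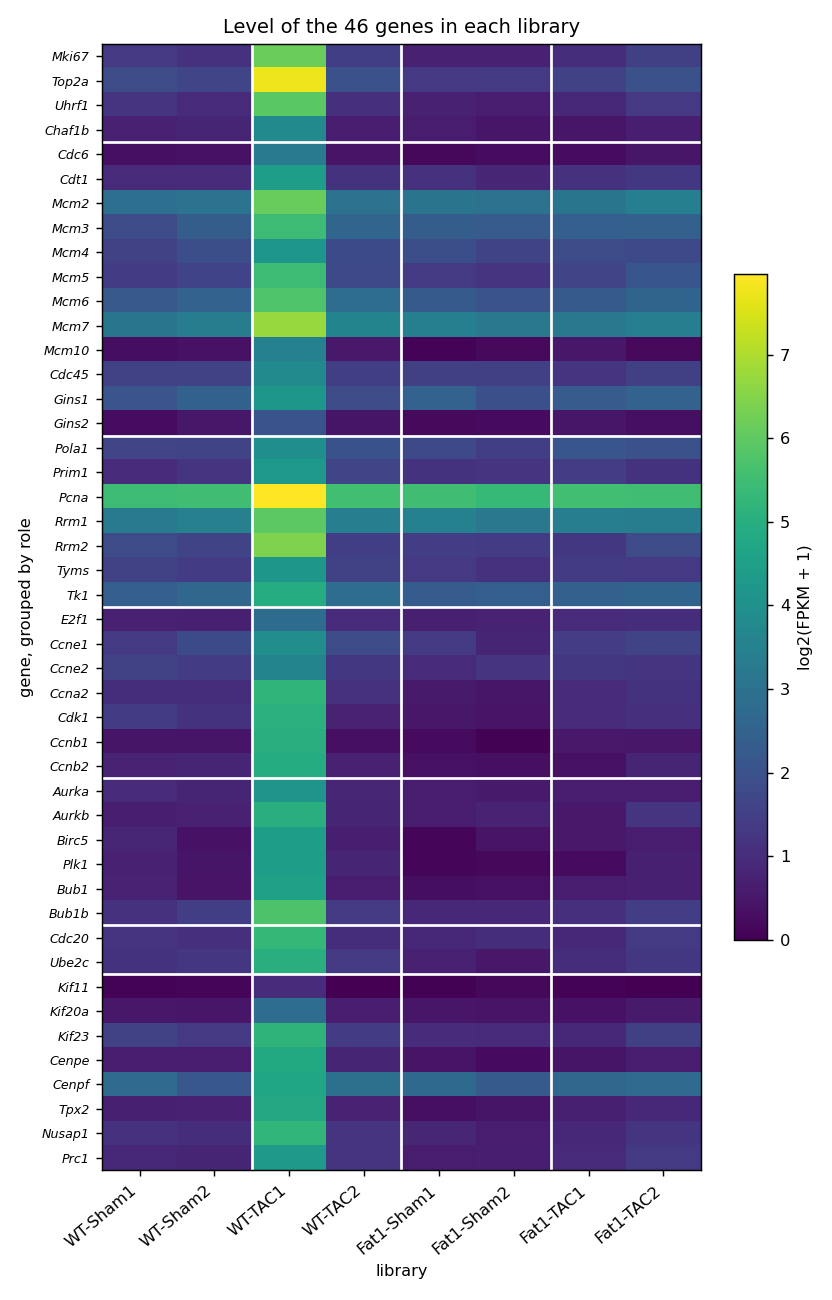
Heat map of log2(FPKM + 1) for the 46 genes (rows, grouped by role, white lines between roles) in the 8 libraries (columns, 2 per group). WT-TAC1 is the brightest column for all 46 genes, and WT-TAC2 resembles the other 6 libraries.

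The depth was similar across libraries. The library totals by which FPKM was scaled, recovered from the values, lay between 14163994 fragments in WT-Sham1 and 21218331 in WT-Sham2. The 46 genes took 59809 fragments in WT-TAC1, a share of 0.302% (95% Wilson interval 0.299 to 0.304). In the other 7 libraries they took between 2653 and 4072 fragments, and the share lay between 0.0152% (0.0147 to 0.0158) in Fat1-Sham2 and 0.022% (0.0214 to 0.0227) in WT-TAC2. These intervals cover counting error only, since fragments without molecular identifiers are not independent molecules. The 2 WT-TAC libraries correlated less well over genes (r = 0.898) than did the pairs of the other 3 groups (r = 0.981 to 0.985), genes being no independent replicates. WT-TAC1 also carried the transcripts of other tissues, which are given with the cell type markers after the comparisons.

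Among the marks of proliferation, Top2a (topoisomerase II alpha, which untangles sister chromatids) was the most abundant. Its FPKM reached 214 in WT-TAC1, against 2.95 in WT-TAC2, 2.62 and 2.17 in WT-Sham, 1.53 and 1.54 in Fat1-Sham, and 1.96 and 2.89 in Fat1-TAC. The WT-TAC mean of 108.5 ± 149.3 (SD, n = 2) thus describes neither of its libraries, whereas WT-Sham was 2.4 ± 0.322 (SD, n = 2). Mki67, which encodes the Ki-67 antigen of cycling cells, was at 69.3 FPKM in WT-TAC1, 1.78 in WT-TAC2, 1.51 and 1.21 in WT-Sham, 0.677 and 0.654 in Fat1-Sham, and 1.08 and 1.85 in Fat1-TAC. For both genes the lowest levels were those of the Fat1-Sham pair. Uhrf1, which brings the maintenance methyltransferase to newly copied DNA, was 59.3 FPKM in WT-TAC1 and between 0.567 and 1.52 elsewhere. Chaf1b, a subunit of chromatin assembly factor 1, was 12.8 FPKM in WT-TAC1 and between 0.385 and 0.789 elsewhere. Relative to the median of the other 7 libraries, WT-TAC1 was 98.8-fold higher for Top2a, 61.7-fold for Uhrf1, 57-fold for Mki67 and 22.6-fold for Chaf1b.

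The sequences before the start sites of Top2a, Mki67 and Uhrf1 are shown because these were the 3 genes with the largest fitted change between WT-TAC and WT-Sham, and because they hold the boxes by which cell cycle genes are commonly described. Each is the 250 bases before a RefSeq start site (GRCm38.p6), 5′ to 3′ on the strand of the gene, at chr11:99024190-99024439 (minus strand) for Top2a, chr7:135716380-135716629 (minus) for Mki67, and chr17:56303087-56303336 and chr17:56304063-56304312 (plus) for the 2 start sites of Uhrf1. In the GENCODE M21 annotation the last 16 bases before the first Uhrf1 start lie in an exon of Uhrf1, and the other stretches overlap no exon. Capitals mark the CCAAT box, the CHR with the letters TTTGAA, and the E2F sites TTTGGCGC, TTTCCCGC, TTTGCCGC or TTTCGCGC, on either strand.
Top2a: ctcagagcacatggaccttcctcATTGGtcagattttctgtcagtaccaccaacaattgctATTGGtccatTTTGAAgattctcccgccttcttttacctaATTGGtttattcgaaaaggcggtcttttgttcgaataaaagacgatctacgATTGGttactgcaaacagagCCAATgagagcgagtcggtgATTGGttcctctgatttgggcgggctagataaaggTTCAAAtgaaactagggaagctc
Mki67: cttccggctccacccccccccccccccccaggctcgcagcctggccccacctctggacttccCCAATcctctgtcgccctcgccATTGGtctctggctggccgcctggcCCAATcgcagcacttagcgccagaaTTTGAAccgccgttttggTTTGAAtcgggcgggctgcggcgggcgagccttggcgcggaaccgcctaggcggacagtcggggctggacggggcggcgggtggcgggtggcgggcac
Uhrf1, first start site: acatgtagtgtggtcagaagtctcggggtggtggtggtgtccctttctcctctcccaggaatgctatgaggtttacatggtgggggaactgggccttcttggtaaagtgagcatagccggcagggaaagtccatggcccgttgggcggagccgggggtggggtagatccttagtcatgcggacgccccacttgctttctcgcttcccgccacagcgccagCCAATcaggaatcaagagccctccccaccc
Uhrf1, second start site: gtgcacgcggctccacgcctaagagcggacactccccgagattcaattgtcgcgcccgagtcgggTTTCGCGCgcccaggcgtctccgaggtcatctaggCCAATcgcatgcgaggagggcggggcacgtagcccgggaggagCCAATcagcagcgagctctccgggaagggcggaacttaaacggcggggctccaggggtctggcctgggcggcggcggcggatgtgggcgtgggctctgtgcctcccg
The Top2a stretch held CCAAT at 6 places and TTTGAA at 2, one of which lay 23 bases before the start. Mki67 held CCAAT at 3 places and TTTGAA at 2. Uhrf1 held CCAAT at 1 place before its first start site, and CCAAT at 2 places and 1 E2F site before its second.

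Over the whole window of 300 bases, which ends 50 bases after the start, promoters were given for 38 of the 46 genes (none for Mcm4, Gins1, Gins2, Ccne2, Ccna2, Aurkb, Kif20a and Tpx2). CCAAT was present in 29 of these 38 (76.3%) and in 41.1% of the 27025 genes with a promoter. TTTGAA was present in 15 (39.5%, against 20.2% of all), and 1 of the E2F sites in 9 (23.7%, against 2.6%). Of the 9 promoters with an E2F site, 6 belonged to the 9 genes of origin licensing and helicase, and none to the 13 genes of the mitotic roles. TTTGAA was found in 9 of those 13, in 2 of the 9 genes of licensing and in none of the 7 genes of DNA synthesis. A match describes letters in a window and not a bound site.

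Genes of origin licensing and of the replicative helicase followed the same pattern at lower ratios. Mcm7, a subunit of the hexameric helicase, was at 104.7 FPKM in WT-TAC1, 11.1 in WT-TAC2, 7.47 and 9.05 in WT-Sham, 9.8 and 8.04 in Fat1-Sham, and 8.17 and 9.6 in Fat1-TAC. Mcm2, another subunit, was at 68.2 FPKM in WT-TAC1, 6.77 in WT-TAC2, 6.46 and 7.25 in WT-Sham, 7.3 and 6.87 in Fat1-Sham, and 7.59 and 9.88 in Fat1-TAC. Apart from WT-TAC1, WT-TAC2 had the highest level of Mcm7, and the groups other than WT-TAC overlapped. For Mcm2, with WT-TAC1 set aside, the Fat1-TAC pair lay above the other 5 libraries. The remaining subunits Mcm3, Mcm4, Mcm5 and Mcm6 were between 17.3 and 53.3 FPKM in WT-TAC1 and between 1.36 and 6.21 elsewhere. The 6 subunits were 7.11-fold (Mcm4) to 21.2-fold (Mcm5) above the median of the other libraries. The loading factors Cdc6 and Cdt1 were 31.5-fold and 17.6-fold above it, and Mcm10, which helps to start the helicase, 44.4-fold, from a median of 0.232 FPKM. Cdc45 and Gins1, which complete the active helicase, were 7.08-fold and 4.44-fold above it, and Gins2 12.5-fold. Of the exon bases of Gins2, 67.3% overlap the gene Gse1 on the other strand, and strandedness of the libraries is not stated, so its reads are uncertain. Smaller such overlaps include those of Kif20a (29.3%), Ccne2 (17.4%), Ccna2 (12.5%), Prc1 (11.1%) and Mcm7 (8.7%).

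Genes of DNA synthesis had the highest summed level outside WT-TAC1 and the lowest median ratio. Pcna, the sliding clamp of the DNA polymerases, was at 248.2 FPKM in WT-TAC1, 45.9 in WT-TAC2, 42.6 and 45.2 in WT-Sham, 44.4 and 39.6 in Fat1-Sham, and 45.5 and 44.8 in Fat1-TAC. Rrm1, the large subunit of ribonucleotide reductase, was at 60.7 FPKM in WT-TAC1, 9.64 in WT-TAC2, 8.71 and 10 in WT-Sham, 10.2 and 8.05 in Fat1-Sham, and 9.59 and 9.21 in Fat1-TAC. Outside WT-TAC1, the levels of both genes differed little. For Pcna, WT-TAC2 was the highest of these libraries and the Fat1-TAC pair lay above the Fat1-Sham pair. For Rrm1, WT-TAC2 lay just above the Fat1-TAC pair, and both lay within the ranges of WT-Sham and Fat1-Sham. Rrm2, the small subunit that is made in S phase, stood out in its role: it was 85 FPKM in WT-TAC1 and between 1.46 and 2.61 elsewhere, 48.2-fold above the median, whereas Rrm1 was 6.33-fold above it. The other genes were 5.54-fold (Pcna) to 13.6-fold (Prim1, the primase) above the median, with Pola1 (the catalytic subunit of polymerase alpha) at 6.01, the thymidine kinase Tk1 at 6.78 and the thymidylate synthase Tyms at 10.9. Pcna, Tyms, Ccnb1 and Ccnb2 have named pseudogenes in the annotation, to which reads may have been assigned.

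Among the cyclins, the mitotic members had the largest ratios. Ccna2 (cyclin A2) was at 36.3 FPKM in WT-TAC1, 1.21 in WT-TAC2, 1.08 and 1.05 in WT-Sham, 0.497 and 0.391 in Fat1-Sham, and 0.945 and 1.26 in Fat1-TAC. Cdk1, the kinase that drives entry into mitosis, was at 33 FPKM in WT-TAC1, 0.728 in WT-TAC2, 1.62 and 1.23 in WT-Sham, 0.414 and 0.335 in Fat1-Sham, and 0.919 and 1.17 in Fat1-TAC. For Cdk1, WT-TAC2 lay below both WT-Sham libraries. In both genes the Fat1-Sham pair was below the other 6 libraries. Ccnb1 (cyclin B1) was 83.3-fold and Ccnb2 45.5-fold above the median of the other libraries, while the G1 to S cyclins Ccne1 and Ccne2 were 8.28-fold and 7.59-fold above it and the transcription factor E2f1 8.37-fold. Ccnb1 rested on between 1 and 13 fragments in the other 7 libraries, so its ratio is imprecise.

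The mitotic kinases and checkpoint genes were 29.4-fold (Aurka) to 57.6-fold (Plk1) above the median of the other libraries in WT-TAC1, and Plk1 had as few as 2 fragments in a library. Bub1b, a kinase of the spindle checkpoint, was at 52.8 FPKM in WT-TAC1, 1.56 in WT-TAC2, 1.18 and 1.78 in WT-Sham, 0.893 and 0.851 in Fat1-Sham, and 1.13 and 1.75 in Fat1-TAC. Aurkb, the kinase of the chromosomal passenger complex, was at 31 FPKM in WT-TAC1, 0.76 in WT-TAC2, 0.593 and 0.643 in WT-Sham, 0.531 and 0.698 in Fat1-Sham, and 0.449 and 1.33 in Fat1-TAC. For Aurkb, unlike Bub1b, the 2 Fat1-TAC libraries spanned the range of the other 5. Birc5 (survivin) was 47.1-fold and the checkpoint kinase Bub1 43.2-fold above the median of the other libraries.

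Partners of the anaphase-promoting complex, which marks mitotic proteins for degradation, were highest in the same library. Cdc20, its activator, was at 38.7 FPKM in WT-TAC1, 1.08 in WT-TAC2, 1.3 and 1.14 in WT-Sham, 0.874 and 1.04 in Fat1-Sham, and 0.831 and 1.55 in Fat1-TAC. Ube2c, the ubiquitin-conjugating enzyme that works with it, was at 30.5 FPKM in WT-TAC1, 1.55 in WT-TAC2, 1.25 and 1.37 in WT-Sham, 0.677 and 0.421 in Fat1-Sham, and 1.05 and 1.47 in Fat1-TAC. Ube2c shares 22.8% of its exon bases with Tnnc2 on the other strand. Of this pair, Ube2c was lowest in the Fat1-Sham libraries, and Cdc20 was not.

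Genes of the spindle, the kinetochore and cytokinesis included both large ratios and the smallest. Cenpf, a kinetochore protein, was at 25 FPKM in WT-TAC1, 6.68 in WT-TAC2, 5.82 and 3.44 in WT-Sham, 5.66 and 3.82 in Fat1-Sham, and 5.23 and 5.93 in Fat1-TAC. Its ratio of 4.42 was the smallest of the 46. Kif23, a kinesin of the midbody, was at 35.4 FPKM in WT-TAC1, 1.59 in WT-TAC2, 1.97 and 1.52 in WT-Sham, 1.03 and 0.937 in Fat1-Sham, and 0.903 and 1.82 in Fat1-TAC. The kinetochore motor Cenpe was 52-fold, the spindle factors Tpx2 and Nusap1 42.6-fold and 34.1-fold, the bundling protein Prc1 20.4-fold and the kinesin Kif20a 15.8-fold above the median of the other libraries. Kif11, the motor that separates the spindle poles, was nearly undetected: it had 96 fragments (1.0 FPKM) in WT-TAC1 and between 0 and 12 in the others, of which 3 libraries were at or under a floor of 3 fragments.

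**Figure D2:**
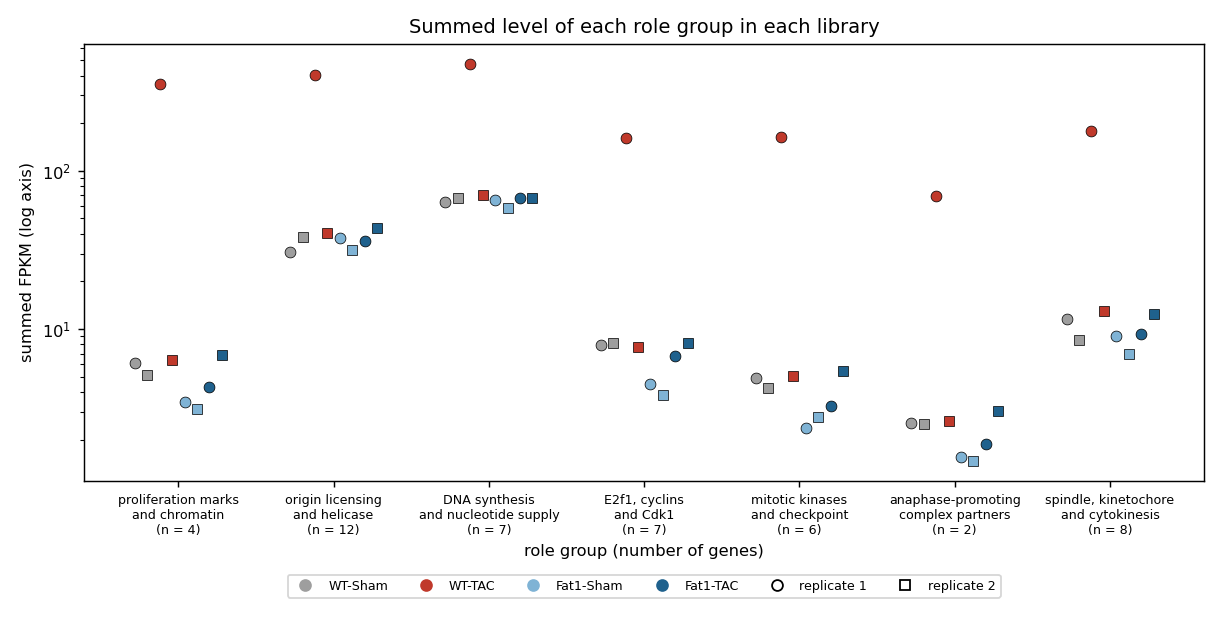
Summed FPKM (log axis) of the genes of each role in each of the 8 libraries; circles are replicate 1 and squares replicate 2, coloured by group. WT-TAC1 is highest in all 7 roles, at 355.4 against 3.14 to 6.86 for the proliferation marks and at 474 against 57.8 to 70.6 for DNA synthesis.

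The median ratio by role was 6.78 for DNA synthesis, 12.1 for licensing, 21.8 for the spindle, kinetochore and cytokinesis, 30.1 for the partners of the anaphase-promoting complex, 34.4 for E2f1, cyclins and Cdk1, 46 for the mitotic kinases and 59.4 for the proliferation marks, and 21.9 over all 46 genes. In WT-TAC1, 41 of the 46 genes were above 10 FPKM, against 3 (Pcna, Rrm1 and Mcm7) in any other library. In the other 7 libraries 14 genes stayed below 1 FPKM throughout. Across the 46 genes, Spearman's rho between the median level in the other 7 libraries and the ratio was -0.60. The ratio contains that median as its denominator, and both come from the same libraries, so this is a description.

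Between WT-TAC and WT-Sham, which asks what pressure overload changed in wild-type hearts, no gene of the 46 was called. Expression was compared with limma on log2(FPKM + 1) in all 8 libraries, and a call needed a p, adjusted after Benjamini-Hochberg, under 0.1 together with a change of at least 1.5-fold in either direction. Of the 46 genes, 32 were tested, and 14 reached 1 FPKM in WT-TAC1 alone and failed the filter of 1 FPKM in at least 2 libraries. Among the 32, Aurkb and E2f1 reached 1 FPKM only in WT-TAC1 and Fat1-TAC2, so both passed the filter through WT-TAC1. Their fitted changes in the comparisons with WT-TAC are no independent support. The count called was 0 of 32, beside 0.935% of the 14442 genes tested. This share, and every later share of tested genes called or passing an unadjusted p, counts both directions together. With the same fold change and an unadjusted p under 0.05 it was 5 of 32 (Prim1, Cenpf, Mcm3, Mcm6 and Pola1), beside 23.8% of all. The log2 fold change was above 0 for all 32, with a median of 1.85, whereas the median over all tested genes was 0.39. The largest were those of Top2a at 3.11 ± 1.54 (SE, adjusted p = 0.206), Mki67 at 2.57 ± 1.25 (adjusted p = 0.203) and Uhrf1 at 2.39 ± 1.3 (adjusted p = 0.23). The smallest were those of Gins1 at 0.73 ± 0.69 (adjusted p = 0.453), Ccne2 at 0.96 ± 0.64 (adjusted p = 0.305) and Cdc45 at 1.09 ± 0.65 (adjusted p = 0.261).

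These fitted changes rested on WT-TAC1. Without WT-TAC2, all 32 genes were called higher in WT-TAC, beside 50.5% of all genes tested, with log2 fold changes of 1.92 to 5.99 and adjusted p between 4.94e-05 and 0.0014; the lone WT-TAC library is then assumed to vary like the other groups. Without WT-TAC1, 0 of the 30 genes still tested were called, the log2 fold changes lay between -0.48 and 0.56 with a median of 0.12, beside 0.2 over all genes, and 21 were above 0. For WT-TAC2 alone, 26 of the 46 genes (56.5%) lay above both WT-Sham libraries, beside 57.7% of all listed genes, and 10 below both (Chaf1b, Cdc45, Gins1, Rrm2, Ccne2, Cdk1, Ccnb1, Ccnb2, Cdc20 and Kif11), beside 11.4%. The share above was near that of all genes, and the share below was higher than it. Both WT-TAC libraries lay above both WT-Sham libraries for 26 of the 46, beside 46.4%.

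**Figure D3:**
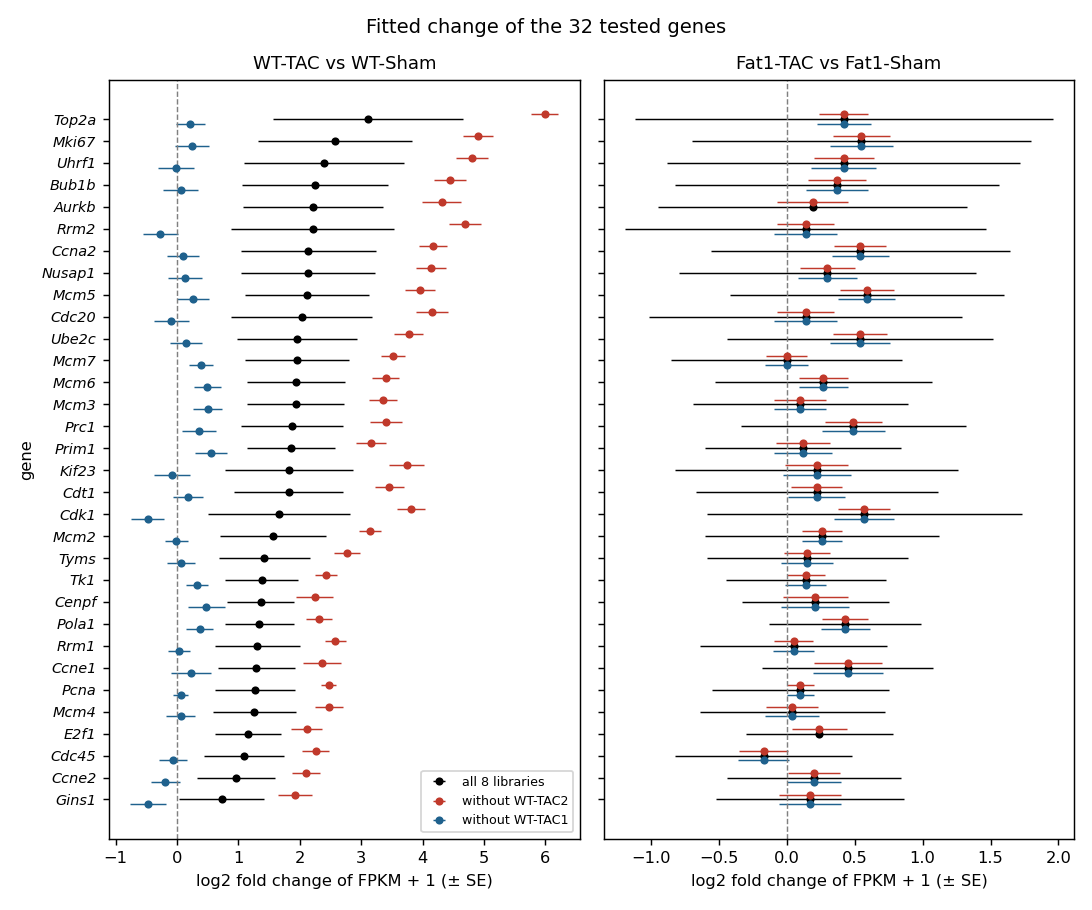
Log2 fold change of FPKM + 1 (horizontal axis, bars ± SE) for the 32 tested genes in WT-TAC against WT-Sham (left) and Fat1-TAC against Fat1-Sham (right), fitted with all 8 libraries, without WT-TAC2 or without WT-TAC1 (30 genes). On the left the values without WT-TAC2 run from 1.92 to 5.99 and those without WT-TAC1 from -0.48 to 0.56; on the right the values of the 3 fits coincide and their errors shrink once either WT-TAC library is left out.

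Between Fat1-TAC and WT-TAC, which share the WT-TAC libraries with the comparison above, 0 of 32 genes were called, beside 1.43% of all tested genes, and 2 (Tk1 and Mcm6) were lower at an unadjusted p under 0.05, beside 25.2% of all. All 32 log2 fold changes were below 0, with a median of -1.63 beside -0.4 over all genes. They ran from -3.1 ± 1.54 (SE) for Top2a (adjusted p = 0.193), -2.52 ± 1.25 for Mki67 (adjusted p = 0.194) and -2.39 ± 1.3 for Uhrf1 (adjusted p = 0.22) to -0.93 ± 0.56 for Pola1 (adjusted p = 0.249), -0.89 ± 0.54 for E2f1 (adjusted p = 0.255) and -0.61 ± 0.69 for Gins1 (adjusted p = 0.513). Both Fat1-TAC libraries lay below both WT-TAC libraries for 19 of the 46 (41.3%), among them Top2a, Mcm3, Mcm6, Mcm7, Pcna and Cenpf, beside 48.7% of all listed genes. Without WT-TAC2, 32 of 32 were called lower, beside 53.8% of all. Without WT-TAC1, 0 of 30 were called, and the median was -0.1 beside -0.19 over all genes.

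The interaction of genotype and surgery, which tests whether the response to TAC differed between genotypes, called 0 of 32 genes, beside 0.0692% of all tested genes. At an unadjusted p under 0.05 it gave 0 of 32, beside 6.99%. The estimates were all below 0, from -2.68 ± 2.18 (SE) for Top2a (adjusted p = 0.526), -2.07 ± 1.89 for Rrm2 (adjusted p = 0.558) and -2.03 ± 1.61 for Aurkb (adjusted p = 0.521) to -0.84 ± 0.89 for Ccne1 (adjusted p = 0.601), -0.76 ± 0.91 for Ccne2 (adjusted p = 0.644) and -0.56 ± 0.97 for Gins1 (adjusted p = 0.751). Without WT-TAC2, 32 of 32 were called, beside 45.8% of all. Without WT-TAC1, none of 30 was called, and the median turned to 0.18.

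Between Fat1-Sham and WT-Sham, which asks what the transgene changed without overload, the genes of mitosis tended to be lower in Fat1-Sham, and none was called. The 2 Fat1-Sham libraries lay below both WT-Sham libraries for 28 of the 46 genes (60.9%), beside 15.2% of all listed genes, and above both for 0, beside 12.3%. They were below for 4 of 4 proliferation marks, 5 of 7 of the cyclin role and 4 of 6 kinases and checkpoint genes. The same held for 2 of 2 partners of the anaphase-promoting complex, 5 of 8 spindle genes, 3 of 7 synthesis genes and 5 of 12 licensing genes. Cdk1 had the largest fitted difference, -0.82 ± 1.16 (SE, adjusted p = 1), followed by Ube2c at -0.58 ± 0.98 and Ccna2 at -0.52 ± 1.1, both with an adjusted p of 1. At the other end were Mcm3 at 0.22 ± 0.79, Prim1 at 0.1 ± 0.72 and Mcm7 at 0.1 ± 0.85, each with an adjusted p of 1. The median over the 32 tested genes was -0.2, beside -0.01 over all genes. Calls were 0 of 32, beside 0% of all tested genes, and 0 of 32 at an unadjusted p under 0.05, beside 0.893%. Since the spread is shared by all groups, WT-TAC1 widens these errors: without it the SE for Cdk1 was 0.22, and Cdk1 alone passed an unadjusted p under 0.05 with the fold change (1 of 30, beside 1.46% of all), with an adjusted p of 0.925.

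Between Fat1-TAC and Fat1-Sham, the effect of overload in fat-1 hearts, levels were slightly higher after TAC and none was called. Both Fat1-TAC libraries lay above both Fat1-Sham libraries for 29 of the 46 genes (63%), beside 22.7% of all listed genes, and below for Cdc45 alone, beside 15.4%. This comparison shares the Fat1-Sham libraries with the preceding one. The largest fitted differences were those of Mcm5 at 0.59 ± 1.01 (SE), Cdk1 at 0.57 ± 1.16 and Mki67 at 0.55 ± 1.25, and the smallest those of Cdc45 at -0.17 ± 0.65, Mcm7 at 0.00 ± 0.85 and Mcm4 at 0.04 ± 0.68, all with an adjusted p of 1. The median was 0.22 beside 0.02 over all genes, and 30 of 32 were above 0. Calls were 0 of 32, beside 0.00692% of all tested genes, and 0 at an unadjusted p under 0.05, beside 1.86%. Without WT-TAC1 the SE for Mcm5 was 0.21, and Mcm5 alone passed an unadjusted p under 0.05 with the fold change (1 of 30, beside 2.94%), with an adjusted p of 0.399. In the interaction fitted without WT-TAC1, Cdk1 alone did (1 of 30, beside 5.16%), at 1.06 ± 0.34 with an adjusted p of 0.558.

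The differences among these 7 libraries were small in absolute terms. The 16 genes of the 3 mitotic roles summed to 19 and 15.2 FPKM in WT-Sham, 13 and 11.2 in Fat1-Sham, 20.7 in WT-TAC2 and, in Fat1-TAC, 14.4 and 20.9, against 411.2 in WT-TAC1. As shares of all fragments, they were 0.00401% (95% Wilson interval 0.00369 to 0.00435) and 0.00301% (0.00278 to 0.00325) in WT-Sham, and 0.00301% (0.00276 to 0.00327) and 0.00243% (0.00223 to 0.00266) in Fat1-Sham. The intervals of WT-Sham2 and Fat1-Sham1 overlap. Fat1-TAC2 was at 0.00429% (0.004 to 0.0046) and Fat1-TAC1 at 0.00322% (0.00297 to 0.00349). Within each of WT-Sham, Fat1-Sham and Fat1-TAC, the intervals of the pair did not overlap. Libraries of the same group thus differed from each other by more than these intervals cover.

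**Figure D4:**
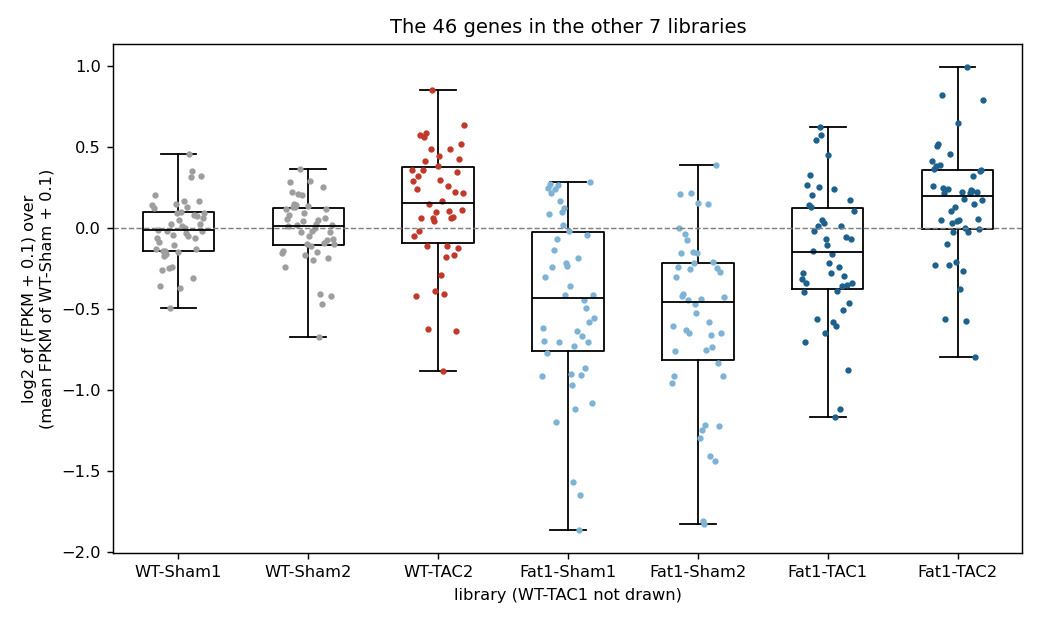
Log2 ratio of each of the 46 genes (points) to the mean of the WT-Sham libraries, with 0.1 FPKM added to both, in the 7 libraries other than WT-TAC1; boxes give the quartiles and whiskers the range, and the WT-Sham libraries are part of their own reference. The medians are 0.16 in WT-TAC2, -0.43 and -0.46 in Fat1-Sham, and -0.15 and 0.2 for the Fat1-TAC pair.

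Further genes of the pathway behaved alike in WT-TAC1, with a few exceptions. Of 38 other replication genes, 37 were highest in WT-TAC1 and 34 more than 2-fold above every other library, beside 51.7% and 20.4% of all listed genes. Of 50 other mitosis genes these counts were 49 and 48, and of 22 regulators of G1 and S phase 20 and 18. None of the tested genes of these lists was called between WT-TAC and WT-Sham (0 of 25, 0 of 21 and 0 of 17), with median log2 fold changes of 0.94, 1.82 and 1.11. Those with the largest fitted changes were the ligase Lig1 at 1.83 ± 0.81 (SE) and Dbf4, the partner of the origin-firing kinase, at 1.73 ± 0.86. Among the mitosis genes they were Cdca3 at 2.44 ± 1.17 and the kinesin Kif15 at 2.25 ± 1.13, and among the regulators Foxm1, a transcription factor of mitotic genes, at 2.2 ± 1.04 and Cks2 at 2.08 ± 1.24. The exceptions were Gmnn (geminin, which blocks relicensing), at 40.2 FPKM in WT-TAC1 and between 37.2 and 58.5 elsewhere, and Pttg1 (securin), at 67.6 in WT-TAC1, its lowest library, and between 80 and 99.4 elsewhere. Among the D cyclins, which link growth signals to the cycle, Ccnd3 was at 263.9 FPKM in WT-TAC1 and between 34.9 and 43.5 elsewhere, Ccnd1 was at 20.1 and between 15.7 and 27.3, and Ccnd2 was at 81.9 and between 55.5 and 90.1. Among the other 7 libraries, the other mitosis genes were lower in Fat1-Sham than in WT-Sham without overlap for 28 of 50 and higher for 2, and the other replication genes for 13 and 5 of 38. Over all listed genes these shares were 15.2% and 12.3%.

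Of 7 inhibitors of cyclin-dependent kinases, 4 were highest in WT-TAC1, near the share of 51.7% over all listed genes. Cdkn2c was at 34.7 FPKM in WT-TAC1 and between 6.85 and 14 elsewhere, Cdkn2d at 54.2 and between 12.3 and 13.8, and Cdkn1b (p27) at 71.1 and between 17.1 and 23.2. Cdkn1c was at 8.38 and between 6.73 and 9.5, and Cdkn2b and Cdkn2a were at most 1.96 and 1.04 FPKM in any library. Cdkn1a (p21), which halts the cycle after DNA damage, was at 28.4 and 17.5 FPKM in WT-Sham, 19 and 14.5 in WT-TAC, 29.6 and 35 in Fat1-Sham, against 14.4 and 10.9 in Fat1-TAC. Its log2 fold change between Fat1-TAC and Fat1-Sham was -1.29 ± 0.27 (SE, adjusted p = 1, limma over all tested genes), and between WT-TAC and WT-Sham -0.41 ± 0.27 (adjusted p = 0.306). None of the 6 inhibitors tested was called in any of the 5 comparisons.

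Some lists of cell type markers were highest in WT-TAC1, like the 46 genes, and others were not. All 11 thymocyte markers were highest there, and their FPKM summed to 2257 there, to 4.54 in WT-TAC2 and to 1.7 to 2.79 in the remaining 6. Rag1, which rearranges antigen receptor genes in immature lymphocytes, was at 251.9 FPKM in WT-TAC1, 0.059 in WT-TAC2 and listed at 0 in the other 6. Dntt, which adds bases at the junctions of those receptors, was at 267 and at most 0.102, and Cd8a at 266.5 and at most 0.228. The 9 cardiomyocyte markers summed to 25360 FPKM in WT-TAC1 and to between 46230 and 61170 elsewhere, so the labelled tissue was present in every library and its markers were lower in WT-TAC1. The share of fragments on mitochondrially encoded genes was 11.7% for WT-TAC1, 19.3% for WT-TAC2 and 22.9% to 27.7% for the others. The 7 macrophage markers were all highest in WT-TAC1, beside 51.7% of all listed genes. They summed to 288 FPKM there and to between 147.3 and 221.2 elsewhere. The 6 neutrophil precursor markers summed to 3.54 FPKM in WT-TAC1 and to between 0.317 and 1.24 elsewhere. Of these 6, 4 were highest in WT-TAC1, beside 51.7% of all listed genes, and 5 were listed at 0 in some other library. The sum of 8 erythroid markers in WT-TAC1 (4345) lay within the range of the others. The part of thymocytes and of the other cells in the levels of the 46 genes was not tested.

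**Figure D5:**
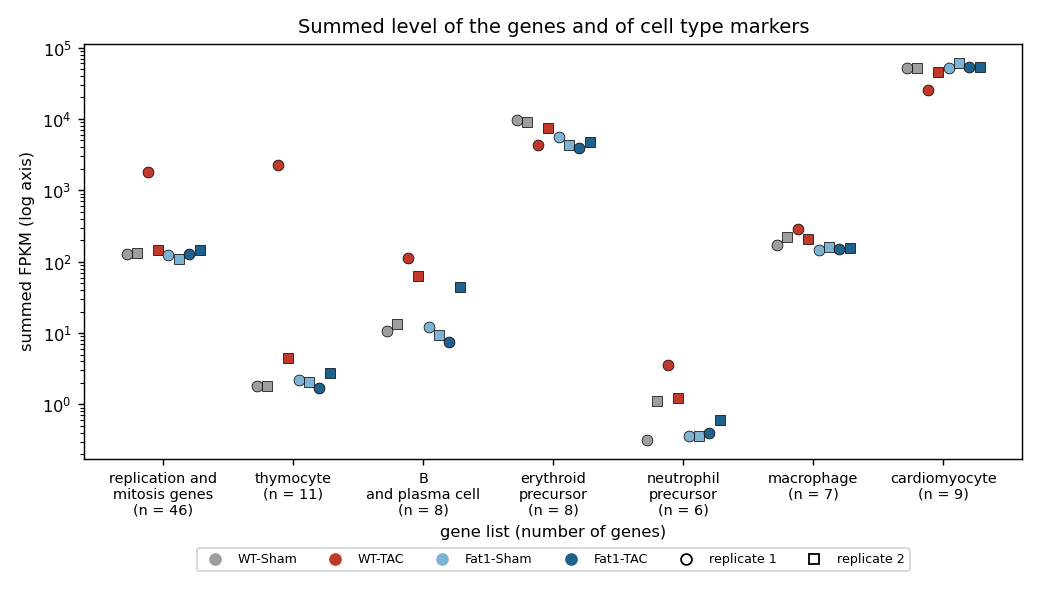
Summed FPKM (log axis) of the 46 genes and of 6 lists of cell type markers in each library, with circles for replicate 1 and squares for replicate 2. The 46 genes and the thymocyte markers are both highest in WT-TAC1, at 1805 and 2257, whereas the cardiomyocyte markers are lowest there.

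Further marker lists varied between libraries as follows, where 51.7% of all listed genes were highest in WT-TAC1. The 8 airway and lung epithelium markers summed to 1501 FPKM for WT-TAC1, 3753 for WT-TAC2, 76.8 for Fat1-Sham1 and at most 0.865 in the other 5, and 4 of the 8 were highest in WT-TAC1. B and plasma cell markers summed to 112.7 for WT-TAC1, 62.3 for WT-TAC2, 44.8 for Fat1-TAC2 and 7.56 to 13.4 for the others, and 6 of the 8 were highest in WT-TAC1. Outside WT-TAC1, 16 of the 46 genes had their highest level in WT-TAC2 and 12 in Fat1-TAC2. The same counts over all listed genes are not given here. WT-TAC2 lay above both WT-Sham libraries for 57.7% of all listed genes, so a high count there is not particular to the 46. Endothelial markers were lowest in WT-TAC1, with a sum of 215.4 FPKM against 267.1 to 332.9. For fibroblast, smooth muscle and adipocyte markers, 3 of 8, 1 of 4 and 1 of 4 were highest in WT-TAC1. The part of these cells in the levels of the 46 genes was not tested.

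Some lists also differed between the sham groups, where 28 of the 46 genes were lower in Fat1-Sham without overlap, beside 15.2% of all listed genes. The erythroid sum was 9779 and 9024 FPKM in WT-Sham, against 5650 and 4372 in Fat1-Sham, and 5 of its 8 markers were lower without overlap. The macrophage sum was 170.4 and 221.2, against 147.3 and 158.9, and 5 of 7 markers were lower. The fibroblast sum was 644.1 and 1045 in WT-Sham, against 628 and 566.9 in Fat1-Sham, and 5 of 8 markers were lower. The median log2 fold change was -0.79 over the 5 erythroid markers tested (3 at an unadjusted p under 0.05). It was -0.35 over the 7 macrophage markers (none) and -0.44 over the 8 fibroblast markers (2). No gene of these 3 lists was called between the sham groups. Of 6 endothelial markers, 2 were lower without overlap and 3 higher, and of 6 neutrophil precursor markers 1 was lower. None of the 9 cardiomyocyte, 11 thymocyte, 8 B and plasma cell, 8 airway, 4 smooth muscle and 4 adipocyte markers was lower without overlap. In Fat1-TAC, where 29 of the 46 genes were higher than in Fat1-Sham, the erythroid sum was 3960 and 4789, the macrophage sum 150.6 and 154.5, and the fibroblast sum 604.5 and 611.3. The part of these cells in the sham difference was not tested.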

How the data were processed

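RNA was sequenced from 8 mouse heart libraries (NEBNext Ultra, Illumina HiSeq), 2 per group. After quality control, reads were aligned by the authors to a reference transcriptome. The submitters' processing notes name HISAT2 and GRCm38 (mm10), and the counting program and strandedness are not given in the sources used here. The authors deposited FPKM values for 25929 genes, without columns of their own comparisons. Whole fragments were recovered for 25928 of them by finding a length at which all 8 values are whole (tolerance 0.0001 fragments). This gave library totals, and FPKM divides by lengths that vary in kind between genes, so levels of different genes compare only roughly.

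The 14442 genes that reached 1 FPKM in 2 libraries or more were fitted with limma 3.58.1 (R 4.3.3; trend, 4 group means, all 8 libraries) on log2(FPKM + 1). Fold changes on this scale understate those of low genes. Calls used an adjusted p under 0.1 and a fold change of 1.5, the cutoffs of the study. The script was tested on simulated data. The members and lists were chosen with earlier results of these data known. In each role, the 2 genes with the highest mean FPKM are given in every library, and for each comparison the 3 highest and 3 lowest fold changes. Promoters are from RefSeq (GRCm38.p6) and exons from GENCODE M21. Scaling, pseudocount, filter, model and left-out libraries were varied. The result of 1 list of cell type markers is not reported here.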

Additional observations from a re-analysis of the deposited data

How the results depend on the processing

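No gene of the 46 was called in any of the 5 comparisons with all 8 libraries, and this held under every scaling, pseudocount, filter and model tried, the replicate block included; shared numbers did not pair the libraries (correlations of deviations -0.135 to 0.024). Over all genes the block gave 52 calls in place of 135 for WT-TAC against WT-Sham, and 52 in place of 206 for Fat1-TAC against WT-TAC. At an unadjusted p under 0.05 the counts were 5 for WT-TAC against WT-Sham and 2 for Fat1-TAC against WT-TAC. Leaving out 1 library at a time gave 0 to 32 in the 3 comparisons with WT-TAC, 32 being without WT-TAC2. With settings chosen after seeing the data, these became 46 without WT-TAC2 and without a filter, and 1 without WT-TAC1 at an unadjusted p under 0.05 in each of Fat1-TAC against Fat1-Sham, Fat1-Sham against WT-Sham and the interaction. The median of Fat1-Sham against WT-Sham moved to -0.11 (quantile scaling), -0.29 (pseudocount 0.1) and -0.31 (voom on fragments).

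Without WT-TAC1, 9 of 30 genes turned direction in WT-TAC against WT-Sham, 10 in Fat1-TAC against WT-TAC and 22 in the interaction, among them Cdk1 at 1.06. Of the genes named by the rule for the largest and smallest changes, these turned (log2), and the cause was not tested. Of the ranges over leaving out 1 library, the first value in the next 3 comparisons is without WT-TAC1 and the last without WT-TAC2. WT-TAC against WT-Sham gave Uhrf1 -0.02 to 4.81, Cdc45 -0.07 to 2.26, Ccne2 -0.19 to 2.1 and Gins1 -0.47 to 1.92. Fat1-TAC against WT-TAC gave Gins1 0.59 to -1.81, Pola1 0.04 to -1.9 and Uhrf1 0.03 to -4.8. The interaction gave Gins1 0.64 to -1.76, Ccne2 0.39 to -1.9, Ccne1 0.22 to -1.91, Rrm2 0.4 to -4.55 and Top2a 0.2 to -5.57. Between Fat1-TAC and Fat1-Sham, Mcm4 was -0.06 with quantile scaling and Mcm7 0.00 with voom, and leaving out Fat1-Sham or Fat1-TAC libraries gave -0.1 to 0.18 for Mcm4 and -0.13 to 0.12 for Mcm7 (0.1 without Fat1-TAC1). Between Fat1-Sham and WT-Sham, leaving out a library of either group gave -0.04 to 0.47 for Mcm3, -0.03 to 0.23 for Prim1 and -0.03 to 0.23 for Mcm7 (-0.02 without WT-Sham1). Depth limits the low genes outside WT-TAC1, where 5 of the 46 (Mcm10, Ccnb1, Birc5, Plk1 and Kif11) had a library at 3 fragments or fewer.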
